A study of Mus musculus with 12 samples.

Results

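The genes of de novo fatty acid synthesis were followed in normal mammary tissue and mammary tumors of the mouse. They are 10 genes chosen by name for their place in the pathway, of 23303 gene names found in all 12 expression files: Acly, Me1, Acaca, Fasn, Elovl6, Scd1, Scd2, Srebf1, Mlxipl and Thrsp. All 10 were found, and 7 had a row of their own in every file. Scd2 appears only in a row that joins it with Scd3 and the microRNA gene Mir5114, Srebf1 shares its row with Mir6922 in the Normal and Tumor files, and Acly shares its row with Mir7116 in the DMSO and C646 files. The value of a joined row is given under the name of the pathway gene.

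Poly-A RNA was sequenced from 4 groups of 3 samples, all from animals that were 12 weeks old. Normal samples came from FVB wild type females without treatment, each replicate being a pool of the abdominal and inguinal glands of 3 mice. Tumor samples came from thoracic tumors of untreated MMTV-PyVT females, 1 mouse each. In this line the mouse mammary tumor virus promoter drives the polyoma virus middle T antigen, an oncogene, chiefly in mammary epithelium. The DMSO and C646 samples came from MMTV-PyVT mice injected with the solvent DMSO or with C646, an inhibitor of the histone acetyltransferase p300. For each of 3 mice per group the biggest tumor was sequenced, and the labels give 1 mg/kg for both injections. Both genotypes are on the FVB background. The transgene, the gland taken and the pooling all change together between Normal and Tumor, so their effects cannot be told apart.

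De novo fatty acid synthesis turns citrate from the mitochondria into palmitate in the cytosol, and elongases and desaturases then lengthen it and place double bonds. The pathway is most active in fat tissue, liver and the lactating mammary gland, and its transcription is driven by insulin through SREBP-1c, the product of Srebf1, and by glucose through ChREBP, the product of Mlxipl. Many carcinomas make fatty acids themselves, and the resting mammary gland of the mouse is epithelium embedded in a large fat pad.

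Expression is given as FPKM, a measure of fragments scaled for library size and transcript length, so that levels of different genes can be compared per length. Replicates resembled each other over all genes, with correlations of log2 values between 0.954 and 0.984 within a group. Luminal epithelial markers were present in every sample, with Epcam between 68.2 and 147 FPKM in Normal and between 524 and 995 FPKM in the 9 tumors. Normal samples also carried high levels of fat cell markers, with Adipoq, which encodes the fat hormone adiponectin, at 1207, 1517 and 1400.5 FPKM. Tumor samples carried skeletal muscle transcripts, with Acta1 at 1289, 1261 and 606 FPKM against 26.8, 3.24 and 2.46 FPKM in Normal. The DMSO and C646 files hold other rows than the Normal and Tumor files, so levels across the 2 experiments are set side by side without a test.

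The sequence just upstream of the start of 3 of the genes is shown, since Fasn is the central enzyme and Srebf1 and Mlxipl encode the regulators whose expression moved in opposite directions between Normal and Tumor. Each window holds the 250 bases before a RefSeq start on GRCm38.p6, written 5′ to 3′ on the strand of the gene, and 8 of the 10 genes had such a window, 12 windows in all. Capitals mark the letters of 4 motifs on either strand: CACGTG (the E-box, bound by the ChREBP and USF families among others), TCACNCCAC (the core of the sterol regulatory element bound by SREBP), CCAAT (the CCAAT box, bound by NF-Y) and GGGCGG (the GC box, bound by Sp1). Fasn lies on the minus strand of chromosome 11 at chr11:120805846-120824547, and its window covers chr11:120824548-120824797, upstream of the gene and outside every annotated exon.
Fasn: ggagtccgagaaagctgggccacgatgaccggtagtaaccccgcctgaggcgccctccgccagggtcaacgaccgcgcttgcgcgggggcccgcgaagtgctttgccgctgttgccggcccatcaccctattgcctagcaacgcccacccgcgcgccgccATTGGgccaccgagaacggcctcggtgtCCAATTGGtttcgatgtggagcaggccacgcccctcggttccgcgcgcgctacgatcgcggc

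The Fasn window holds 3 CCAAT matches, of which the pair within CCAATTGG overlaps on opposite strands. Srebf1 lies on the minus strand at chr11:60199089-60222581 and has 3 starts. Their windows cover chr11:60210472-60210721 and chr11:60220628-60220877, both inside the gene but in no annotated exon, and chr11:60222582-60222831, upstream of the gene.
Srebf1 start 1: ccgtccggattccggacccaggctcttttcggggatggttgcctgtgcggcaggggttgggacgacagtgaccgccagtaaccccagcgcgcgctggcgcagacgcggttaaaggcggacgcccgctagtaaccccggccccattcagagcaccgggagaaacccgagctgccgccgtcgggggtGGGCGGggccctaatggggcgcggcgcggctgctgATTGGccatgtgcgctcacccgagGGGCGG
Srebf1 start 2: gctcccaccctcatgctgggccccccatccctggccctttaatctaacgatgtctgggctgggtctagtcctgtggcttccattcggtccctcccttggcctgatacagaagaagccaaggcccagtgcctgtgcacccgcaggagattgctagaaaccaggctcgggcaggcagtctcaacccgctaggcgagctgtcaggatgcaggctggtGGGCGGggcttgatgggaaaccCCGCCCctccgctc
Srebf1 start 3: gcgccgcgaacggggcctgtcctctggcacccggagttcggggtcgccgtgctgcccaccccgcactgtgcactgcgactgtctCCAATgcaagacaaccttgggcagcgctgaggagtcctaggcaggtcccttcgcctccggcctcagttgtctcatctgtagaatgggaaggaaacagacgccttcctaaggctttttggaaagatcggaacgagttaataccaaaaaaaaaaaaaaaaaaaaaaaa

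The first and the second window hold GC boxes, and the first and the third hold a CCAAT match. Mlxipl lies on the plus strand of chromosome 5 at chr5:135089890-135138382 and has 2 starts. The first window, chr5:135089640-135089889, lies upstream of the gene, and the second, chr5:135106641-135106890, lies inside it but in no annotated exon.
Mlxipl start 1: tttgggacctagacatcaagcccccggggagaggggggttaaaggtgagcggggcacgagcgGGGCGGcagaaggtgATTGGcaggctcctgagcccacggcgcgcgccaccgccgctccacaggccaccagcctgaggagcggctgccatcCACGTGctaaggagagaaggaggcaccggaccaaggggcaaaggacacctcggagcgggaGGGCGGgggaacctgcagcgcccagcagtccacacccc
Mlxipl start 2: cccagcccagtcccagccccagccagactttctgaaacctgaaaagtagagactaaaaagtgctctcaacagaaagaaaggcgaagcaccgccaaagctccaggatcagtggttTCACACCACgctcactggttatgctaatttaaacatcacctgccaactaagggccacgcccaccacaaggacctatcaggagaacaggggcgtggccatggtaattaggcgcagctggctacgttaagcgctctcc

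Among the 12 windows, the E-box letters occurred only before the first start of Mlxipl and the sterol element core only before its second start. These letters occur in 6.02% and 1.05% of the 32851 RefSeq promoter windows of that length. CCAAT was found in 6 of the 12 windows (of Fasn, Me1, Mlxipl, Srebf1 and Thrsp) and GGGCGG in 5 (of Acly, Me1, Mlxipl and Srebf1), against 33.8% and 32.7% of all windows. A match describes the letters only, and these windows do not include sites farther upstream.

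The first comparison asked how the pathway differs between normal mammary tissue and tumor. Of the 10 genes, 8 were lower and 1 was higher in Tumor than in Normal by limma with Benjamini-Hochberg adjustment over all genes tested. Of all 13031 genes tested, 31.7% were lower and 28.8% were higher at the same threshold. The median log2 fold change was -3.38 over the 10 genes and -0.02 over all genes tested. Of the summed FPKM of all named rows, the 10 genes together held 1.94%, 1.93% and 2.29% in the Normal samples. They held 0.28%, 0.36% and 0.162% in the Tumor samples. In whole tissue, fewer cells of a type and less RNA per cell cannot be told apart.

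**Figure D1:**
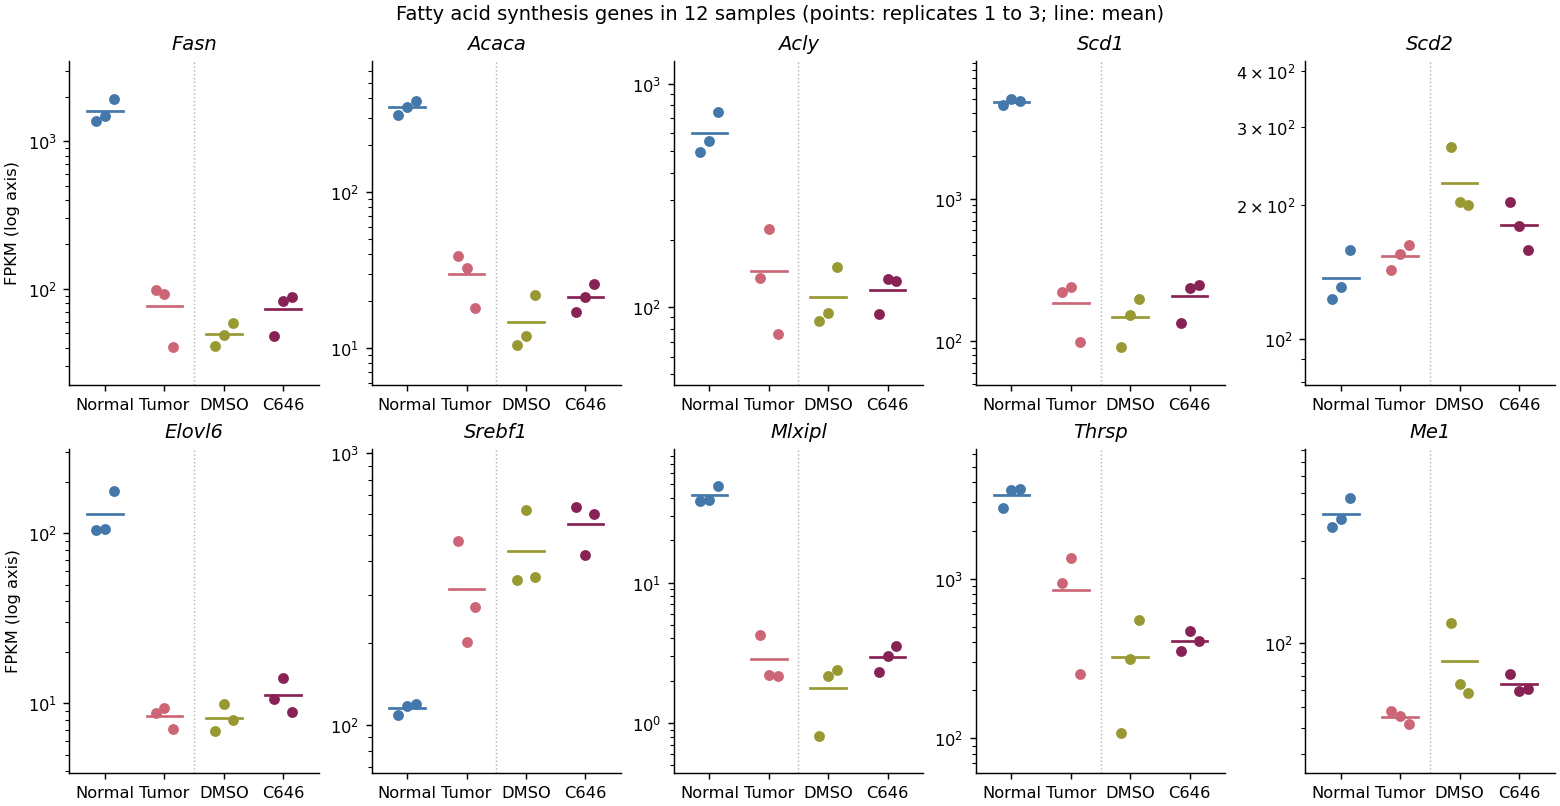
FPKM of the 10 genes (vertical log axes, 1 panel per gene) in the 4 groups, with a point for each replicate and a line at the group mean. A dotted line separates the experiments. In 8 panels the Normal samples lie above every tumor, Scd2 shows overlapping Normal and Tumor samples, and for Srebf1 the Normal samples, between 109 and 120 FPKM, are the lowest.

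The enzymes that supply the pathway were lower in Tumor. Acly, ATP citrate lyase, splits citrate into the acetyl-CoA that feeds fatty acids and sterols. It stood at 492, 554 and 749 FPKM in Normal and at 135, 224 and 75.5 FPKM in Tumor. The groups did not overlap, and the mean was 4.13-fold lower in Tumor (log2 fold change -2.16, SE 0.38, limma adjusted p = 0.00231). Me1, the cytosolic malic enzyme, yields NADPH, the reducing agent of the pathway. Its level was 349, 381 and 475 FPKM in Normal and 47.8, 45.3 and 41.6 FPKM in Tumor. Me1 had the narrowest spread among the tumors of the genes that fell, and it was 8.95-fold lower by the means (log2 fold change -3.15, SE 0.16, limma adjusted p = 1.89e-05).

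The enzymes that build the chain had larger fitted falls, though fold changes were not tested between genes. Acaca, acetyl-CoA carboxylase 1, makes malonyl-CoA in the committed step. Its values were 314, 351 and 386 FPKM in Normal and 39.2, 32.6 and 18.2 FPKM in Tumor, a drop of 11.7-fold in the mean (log2 fold change -3.61, SE 0.28, limma adjusted p = 6.42e-05). Fasn, fatty acid synthase, carries out all the steps from malonyl-CoA to palmitate. It measured 1376, 1483 and 1923 FPKM in Normal and 98.1, 91.7 and 40.7 FPKM in Tumor. Every tumor was far below every Normal sample, and the mean was 20.7-fold lower (log2 fold change -4.46, SE 0.35, limma adjusted p = 6.64e-05). Tumor replicate 3 was the lowest of the 3 tumors for both enzymes.

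The enzymes that modify palmitate split. Elovl6 extends palmitate to stearate, and it was found at 105, 105 and 177 FPKM in Normal and at 8.76, 9.44 and 7.09 FPKM in Tumor. The difference was 15.3-fold in the mean (log2 fold change -3.90, SE 0.23, limma adjusted p = 2.8e-05). Scd1, stearoyl-CoA desaturase 1, places the double bond of oleate and had the highest level of the 10 genes in Normal, at 4529, 5036 and 4821 FPKM. In Tumor it stood at 219.8, 241 and 98.6 FPKM, the largest fall among the 10 genes at 25.7-fold (log2 fold change -4.79, SE 0.35, limma adjusted p = 5.12e-05). Scd2, a desaturase of the same gene cluster on chromosome 19, was measured at 123, 130.3 and 158 FPKM in Normal and at 142, 155 and 162 FPKM in Tumor. These ranges overlap, and the log2 fold change of 0.17 (95% interval -0.18 to 0.52, limma adjusted p = 0.357) changed sign under quantile normalization, to -0.0055, and when all samples were scaled to the same total FPKM, to -0.084.

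The ratio of Scd1 to the Scd2 row was between 30.5 and 38.6 in Normal and between 0.608 and 1.56 in Tumor. The desaturases are close paralogs, so fragments may be split between them, and the Scd2 row also holds Scd3. Scd1 lies at chr19:44394455-44407879 on the minus strand and Scd2 at chr19:44293674-44306864 on the plus strand, by the GENCODE annotation of GRCm38.

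The regulators went in opposite directions. Srebf1 encodes SREBP-1, the transcription factor that switches on most of the enzymes above. It stood at 109, 117 and 120 FPKM in Normal and at 476, 202 and 271 FPKM in Tumor. It was the 1 gene of the 10 that rose, by 2.75-fold in the mean (log2 fold change 1.37, SE 0.30, limma adjusted p = 0.00568), and without Tumor replicate 1, the highest tumor, its log2 fold change was 1.03. Mlxipl encodes ChREBP. Its values were 38.1, 38.8 and 48.3 FPKM in Normal and 4.25, 2.2 and 2.17 FPKM in Tumor, 14.5-fold lower in the mean (log2 fold change -3.91, SE 0.28, limma adjusted p = 4.8e-05). FPKM per gene does not separate the transcripts from the different starts of Srebf1 or Mlxipl, and SREBP-1 is also controlled by cleavage of the protein, which RNA does not measure.

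Thrsp, also called Spot 14, is a small nuclear and cytosolic protein that goes with high lipogenesis in fat, liver and lactating gland. It had the second highest level in Normal, at 2772, 3588 and 3619 FPKM, and stood at 937, 1352 and 252 FPKM in Tumor. The tumors spanned a 5.37-fold range, the widest of the 10 genes, and all lay under the Normal samples (3.93-fold lower in the mean, log2 fold change -2.27, SE 0.58, limma adjusted p = 0.0119). Without Tumor replicate 3 its log2 fold change was -1.55. Thrsp was the highest of the 10 genes in Tumor replicates 1 and 2, and Srebf1 was the highest in replicate 3.

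**Figure D2:**
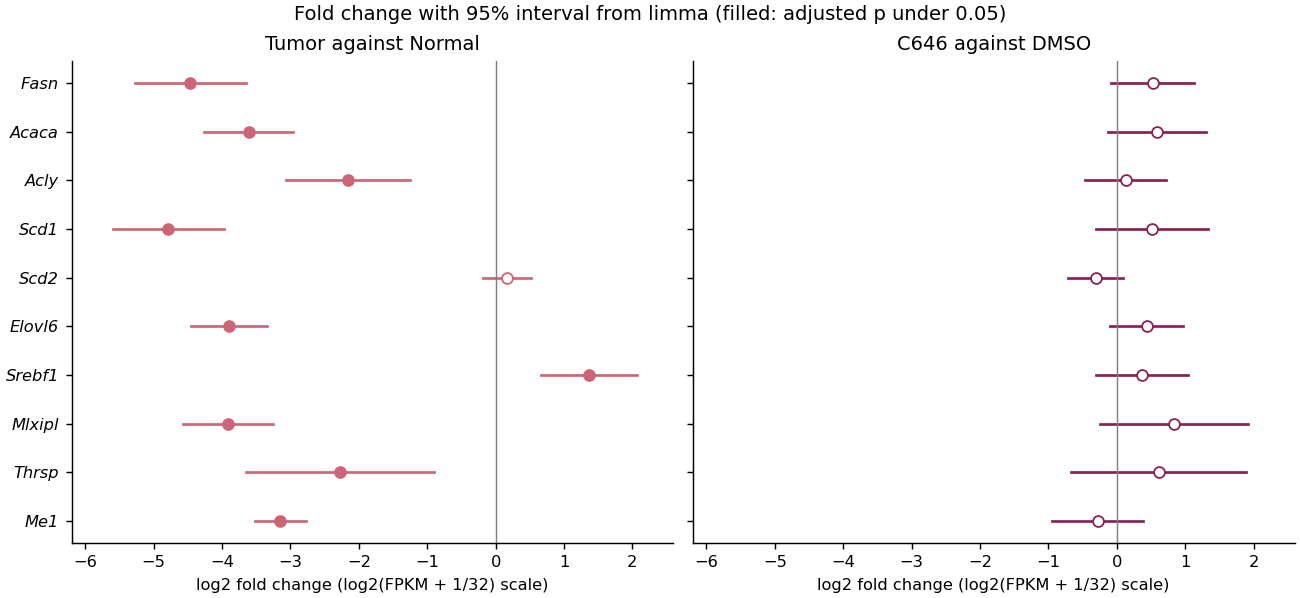
Log2 fold change of the 10 genes with its 95% interval from limma, for Tumor against Normal (left) and C646 against DMSO (right), on the same horizontal scale. Filled points have an adjusted p under 0.05. The intervals on the left lie below 0 for 8 genes and above 0 for Srebf1, and all 10 intervals on the right include 0.

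The 9 calls kept their direction and their side of the threshold under all 17 alternatives that were run. For a single gene the exact permutation test of 3 samples against 3 gives p = 0.1 for any pair of groups that do not overlap, the smallest it can give. Within the Normal group, replicate 1 had the lowest value for all 10 genes and replicate 3 the highest for 9. Among the tumors, replicate 3 had the lowest value for 8 of the 10.

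The proportions among the enzymes also differed between the groups. Fasn stood at between 2.57 and 2.80 times the level of Acly in Normal and at between 0.409 and 0.725 times in Tumor. Against Acaca the ratio of Fasn was between 4.23 and 4.98 in Normal and between 2.23 and 2.81 in Tumor. Against its regulator Srebf1 it was between 12.7 and 16.1 in Normal and between 0.15 and 0.453 in Tumor. None of these ranges overlap between Normal and Tumor, and the ratios were not tested.

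Markers of fat cells differed between the groups together with the synthesis genes. All 12 white adipocyte markers were lower in Tumor, with a median log2 fold change of -6.48, and their summed level ranged from 28182 to 35664 FPKM in Normal and from 261 to 2741 FPKM in Tumor. Adipoq was at 58.2, 1.56 and 3.20 FPKM in Tumor (log2 fold change -7.67, limma adjusted p = 0.0012). Lep, the gene of leptin, was at 2.30 and 0.0596 FPKM in replicates 1 and 3 and was listed at 0 in replicate 2. Among the tumors, Lep and Pparg reached 1 FPKM only in replicate 1, and they were tested only because of their level in Normal. The 7 brown adipocyte markers tested were lower too, with a median of -4.73, Ucp1 and Cidea among them. Of these, Dio2 and Ppargc1a were under 1 FPKM in every tumor and Kcnk3 in Tumor replicates 2 and 3. Dio2, Ppargc1a and Kcnk3 were tested only because of their level in Normal. Fabp3 overlapped between the groups and lost its call under 4 of the 17 alternatives, and Ppargc1a lost its call under 1 of the 14 that tested it. In the other direction, 7 of 8 luminal epithelial markers were higher, with a median of 2.86, among them Epcam (log2 fold change 2.98) and Krt8 (log2 fold change 2.57). The shares of all genes tested were 31.7% lower and 28.8% higher. The part of this change in tissue makeup in the fall of the synthesis genes was not tested.

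Ratios of Fasn, Scd1 and Thrsp to the fat cell markers depended on the marker. Fasn over Adipoq was 1.14, 0.977 and 1.37 in Normal and 1.69, 58.6 and 12.7 in Tumor. For Scd1 the ratio was between 3.32 and 3.75 in Normal and 3.77, 154 and 30.8 in Tumor, and for Thrsp it was between 2.30 and 2.58 in Normal and 16.1, 864 and 78.5 in Tumor. Tumor replicate 1, which had the most white adipocyte RNA of the 3, lay nearest to the Normal range in each of these ratios. Adipoq is among the markers that fell most. Over the 12 markers, the ratio of Fasn was wholly higher in Tumor for 5, overlapped for 5 and was wholly lower for 2, Cebpa and Pnpla2, named after their values were seen, and that of Scd1 was higher for 4, overlapped for 6 and was lower for the same 2. Fasn over Cebpa was 5.01, 4.30 and 6.04 in Normal and 1.82, 2.48 and 1.19 in Tumor. For Thrsp the ratio was wholly higher in Tumor for 11 markers and overlapped for Cebpa. In all these counts the ratio to Lep rests on Tumor replicates 1 and 3, since Lep was listed at 0 in replicate 2. In Tumor replicate 3 Lep was at 0.0596 FPKM. Relative to Epcam the order turned, with Fasn at between 9.36 and 21.7 times Epcam in Normal and between 0.0541 and 0.142 times in Tumor. Without Tumor replicate 1 the same 8 genes were lower and Srebf1 was higher.

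**Figure D3:**
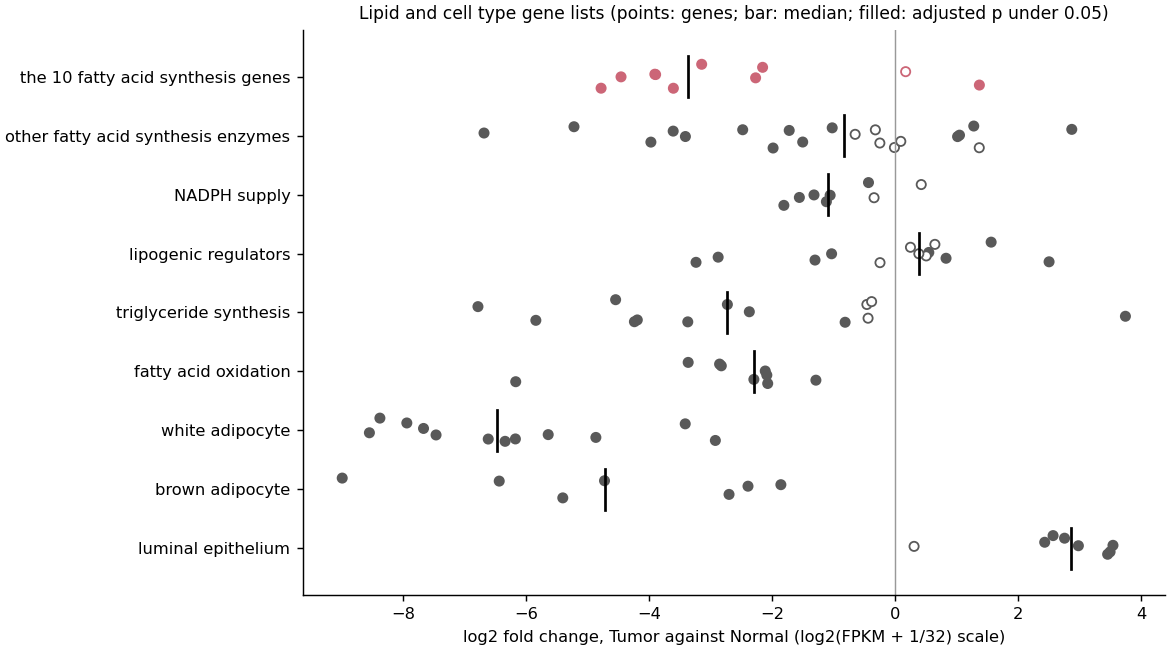
Log2 fold change of Tumor against Normal (horizontal axis) for the genes of 9 lists, with a point for each gene tested and a bar at the median of the list. Filled points have an adjusted p under 0.05. The 10 synthesis genes have a median of -3.38, between triglyceride synthesis at -2.73 and brown adipocyte markers at -4.73. Fatty acid oxidation has a median of -2.30, white adipocyte markers of -6.48 and luminal epithelial markers of 2.86.

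Other enzymes of fatty acid synthesis went both ways. Of 20 tested, 10 were lower and 4 were higher in Tumor, with a median log2 fold change of -0.84. Over all genes tested, 31.7% were lower and 28.8% were higher. The 3 with the largest change all fell: Elovl3, an elongase of fat and skin, with a log2 fold change of -6.69, Scd4, a further desaturase, with -5.23, and Acacb, acetyl-CoA carboxylase 2, with -3.98. Elovl3 stood at 2.58, 0.0527 and 0.281 FPKM in Tumor, and Scd4 was under 1 FPKM in every tumor. Both were tested only because of their level in Normal, and the pseudocount affects the size of such falls. The 4 that rose are named here after their values were seen. They are the elongases Elovl7 (log2 fold change 2.87) and Elovl1 (1.27), the dehydratase Hacd1 (1.04) and the desaturase Fads2 (1.01), and the call of Fads2 was lost when samples were scaled to the same total FPKM (limma adjusted p = 0.0592). Elovl1 stood at 32.9, 34.2 and 28.8 FPKM in Normal and at 87.1, 76.2 and 69.3 FPKM in Tumor.

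Of 8 other genes listed under NADPH supply, 6 were lower and none was higher, with a median of -1.09. The shares of all genes tested were 31.7% lower and 28.8% higher. Not all 8 make NADPH themselves, Mdh1, Pgls and Nadk being exceptions. Idh1, cytosolic isocitrate dehydrogenase, fell by 1.81, Me3, a mitochondrial malic enzyme, by 1.56, and G6pdx, the entry enzyme of the pentose phosphate pathway, by 1.32 on the log2 scale. The call of Me3, which lay between 0.603 and 3.78 FPKM, was lost under 7 of the 17 alternatives and that of Nadk, named for this reason, under 6. The count was 4 under the replicate block and without Normal replicate 2, Normal replicate 3 or Tumor replicate 3.

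Of 13 other regulators of lipogenesis, 4 were higher and 4 were lower, with a median of 0.38, shares near the 28.8% and 31.7% of all genes. Nr1h3 encodes LXR alpha, which activates Srebf1 transcription, and it fell by 3.24 on the log2 scale, from 41.7, 51.9 and 43.9 FPKM to 9.09, 3.29 and 3.67 FPKM. Insig1, a sterol-responsive protein that holds SREBP in the endoplasmic reticulum, fell by 2.88, from between 96.4 and 180.3 FPKM to between 15.4 and 20.7 FPKM. Trib3, a stress-induced pseudokinase, rose by 2.50, from between 3.40 and 3.98 FPKM to between 20.3 and 22.3 FPKM. The other genes called are named after their values were seen. Scap, the escort of SREBP to the Golgi, rose by 1.56, Usf1 by 0.82 and Srebf2 by 0.54, and Mid1ip1, a partner of Thrsp, fell by 1.04 and Prkaa1 by 1.31. The call of Srebf2 was lost under 6 of the 17 alternatives.

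Most genes of fatty acid storage and breakdown were lower in RNA as well. Of 13 genes of triglyceride synthesis, 9 were lower and 1 was higher, with a median of -2.73. Against this, 31.7% of all genes tested were lower and 28.8% were higher. The lower count was 8 without Normal replicate 2 and 12 with samples scaled to the same total FPKM. The call of Lpin2, named for this reason, was lost under 4 of the 17 alternatives. Dgat2, which adds the last acyl chain, went from 864, 1177 and 996 FPKM to 46.8, 2.87 and 5.49 FPKM (log2 fold change -6.79). Gpat3, a glycerol phosphate acyltransferase, fell by 5.85, and Acsl1, an acyl-CoA synthetase, fell by 4.55 on the log2 scale. Gpat3 stood at 1.77, 0.356 and 0.227 FPKM in Tumor and was tested only because of its level in Normal. Acsl4, a synthetase that prefers arachidonate and was chosen after its values were seen, rose from between 4.81 and 7.18 FPKM to 56.7, 69.3 and 119 FPKM (log2 fold change 3.74, limma adjusted p = 6.53e-05). Of 9 fatty acid oxidation genes tested, 9 were lower, with a median of -2.30. One of them, Ppara, a transcription factor of oxidation, fell by 6.17 but was under 1 FPKM in every tumor and was tested only because of its level in Normal. The mitochondrial enzymes Hadhb and Acadm fell by 3.37 and 2.86.

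Among leukocyte markers, Ptprc was lower in Tumor, between 56.2 and 63.4 FPKM in Normal and between 1.35 and 1.68 FPKM in Tumor. Cd3e was under 0.2 FPKM in every tumor and was tested only because of its level in Normal. Endothelial markers were lower for 4 of 4 genes, Pecam1 and Cdh5 among them. Basal epithelial markers were lower for 3 of 5 and higher for 1, Trp63, while Krt5 overlapped. Muscle and proliferation markers were each higher for 5 of 5 genes, among them Acta1 and Ckm, and Mki67 and Top2a. The call of Trp63 and that of the proliferation marker Pcna, named for this reason, were each lost under 3 of the 17 alternatives. Beside these counts, 31.7% of all genes tested were lower and 28.8% were higher. The part of these marker differences in the values of the synthesis genes was not tested.

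Milk genes were higher for 4 of 8, namely Csn3, Wap, Lalba and Xdh, which were named after their values were seen. Of all genes tested, 28.8% were higher and 31.7% were lower. Without Tumor replicate 3 the count was 7 higher, with a median of 4.31, and without Tumor replicate 2 it was 4 higher and 1 lower, with a median of 1.37 against 2.89 in all samples. The median was 1.91 without Normal replicate 2. The caseins Csn1s1 and Csn2 did not pass the test. Csn2 stood at 273, 18.2 and 233 FPKM in Normal and at 580.4, 9504 and 115 FPKM in Tumor. In a comparison made after the values were seen, Thrsp put the 3 tumors in the same order as Csn2, with replicate 2 highest and replicate 3 lowest. Acly, Scd1 and Elovl6 put them in that order too.

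The second comparison asked whether the p300 inhibitor changed the pathway in tumors. None of the 10 genes passed the test by limma, and 8 of the 10 had a higher fitted level in C646 than in DMSO. Over all 12083 genes tested limma called 0.0% (0 genes), while 169 genes were higher and 215 lower at an unadjusted p under 0.05, and none of the 10 genes was among them. The lowest unadjusted limma p among the 10 genes was 0.082, for Fasn. The DMSO and C646 samples overlapped for every one of the 10 genes, against 4.04% of all genes with C646 wholly higher and 4.52% with C646 wholly lower. The median log2 fold change was 0.48 over the 10 genes and -0.01 over all genes tested, and without DMSO replicate 1 that of the 10 genes was 0.21. All 10 had a limma adjusted p of 0.99.

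Fasn stood at 41.1, 48.8 and 58.3 FPKM in DMSO and at 47.9, 83.0 and 87.6 FPKM in C646. Replicates 2 and 3 of C646 lay above all DMSO samples and replicate 1 among them, with a log2 fold change of 0.52 and a 95% interval from -0.09 to 1.14. Acaca stood at 10.5, 11.9 and 22.02 FPKM against 17.0, 21.2 and 25.8 FPKM (log2 fold change 0.59, interval -0.13 to 1.31). The intervals thus include no change and, at their upper bound, more than a doubling on the linear scale. Scd1 was measured at 90.4, 154 and 196 FPKM in DMSO and at 135, 238 and 249.5 FPKM in C646 (log2 fold change 0.52, interval -0.30 to 1.34). Elovl6 was at 6.87, 9.90 and 7.95 FPKM against 10.7, 14.1 and 8.90 FPKM (log2 fold change 0.44, interval -0.09 to 0.96). C646 replicate 3 was the only C646 sample within the DMSO range of Elovl6.

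Acly, the supplier of acetyl-CoA, overlapped widely, at 86.9, 94.3 and 151 FPKM in DMSO and 93.6, 134 and 130.4 FPKM in C646 (log2 fold change 0.13, interval -0.46 to 0.72). Scd2 stood at 270.2, 203 and 200.03 FPKM in DMSO and at 203, 179.6 and 159 FPKM in C646 (log2 fold change -0.31, interval -0.71 to 0.10). Me1 stood at 123, 64.3 and 58.0 FPKM in DMSO and at 71.3, 59.4 and 60.4 FPKM in C646 (log2 fold change -0.28, interval -0.95 to 0.39). Scd2 and Me1 were the 2 genes with a lower fitted level in C646, and both were highest in DMSO replicate 1. Without that sample the log2 fold change of Me1 was 0.056.

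The regulators also overlapped. Srebf1 stood at 341, 620.4 and 351 FPKM in DMSO and at 633, 423 and 598 FPKM in C646 (log2 fold change 0.37, interval -0.30 to 1.04). Mlxipl stood at 0.813, 2.15 and 2.41 FPKM in DMSO and at 2.30, 3.004 and 3.54 FPKM in C646 (log2 fold change 0.83, interval -0.25 to 1.91), the largest fitted difference of the 10 genes. Thrsp stood at 108, 315 and 549.9 FPKM in DMSO and at 353, 468 and 406 FPKM in C646 (log2 fold change 0.61, interval -0.67 to 1.90). For Thrsp all C646 samples fell inside the DMSO range. DMSO replicate 1 was the lowest DMSO sample for 8 of the 10 genes, and without it the log2 fold change of Thrsp was -0.035, that of Acly -0.020, that of Scd1 0.21, that of Acaca 0.38, that of Srebf1 0.22 and that of Mlxipl 0.35.

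White adipocyte markers also had a higher summed level in the C646 samples. Their sum was 103, 240.1 and 185 FPKM in DMSO and 257, 530.4 and 797 FPKM in C646, without overlap. All 10 markers tested had a positive log2 fold change, and none passed the test (limma adjusted p = 0.99 for each). Of them, 5 lay wholly higher in C646, against 4.04% of all genes, and the others overlapped. The median of 3.37 depends on the pseudocount because several DMSO values are listed at 0. It was 2.07 without C646 replicate 3 and 2.08 without C646 replicate 2, each over 9 markers, and 2.12 without DMSO replicate 1. Plin1 was under 1 FPKM in every DMSO sample and was tested only because of its level in C646. Among DMSO samples, Adipoq, Cidec and Retn reached 1 FPKM only in replicate 2, so they too were tested only because of their level in C646. Adipoq, Plin1 and Retn are among the 5 that lay wholly higher, so that count cannot be weighed against the 4.04%. With no filter on low values the median was 2.45 over 12 markers. Adipoq was at 0.186 and 1.57 FPKM in DMSO replicates 1 and 2 and listed at 0 in replicate 3, and it was at 3.57, 10.6 and 22.8 FPKM in C646. C646 replicate 1 had the lowest of the 3 adipocyte sums and also the lowest Fasn, Acaca, Acly, Scd1, Mlxipl and Thrsp of its group, but the highest Scd2, Srebf1 and Me1. The part of these markers in the values of the synthesis genes was not tested.

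The other lipid lists held no gene that limma called for C646. Their median log2 fold changes were -0.08 for the other synthesis enzymes, -0.08 for NADPH supply, -0.11 for the regulators, 0.08 for triglyceride synthesis and 0.02 for fatty acid oxidation. Among their genes, Gpd1 and Acsl1 lay wholly higher in C646, 2 of the 12 triglyceride synthesis genes tested, against 4.04% of all genes. Wholly lower were Trib3, 1 of 13 regulators, and the mitochondrial acyltransferase Mcat, 1 of 18 other synthesis enzymes, against 4.52% of all genes. NADPH supply and fatty acid oxidation held no such gene, and the shares were not tested. These 4 genes were named after their values were seen. Acsl1 stood at 22.3, 22.3 and 20.1 FPKM in DMSO and at 24.7, 28.6 and 35.4 FPKM in C646, and Trib3 stood at 24.1, 16.4 and 20.9 FPKM in DMSO and at 15.1, 14.6 and 14.04 FPKM in C646.

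**Figure D4:**
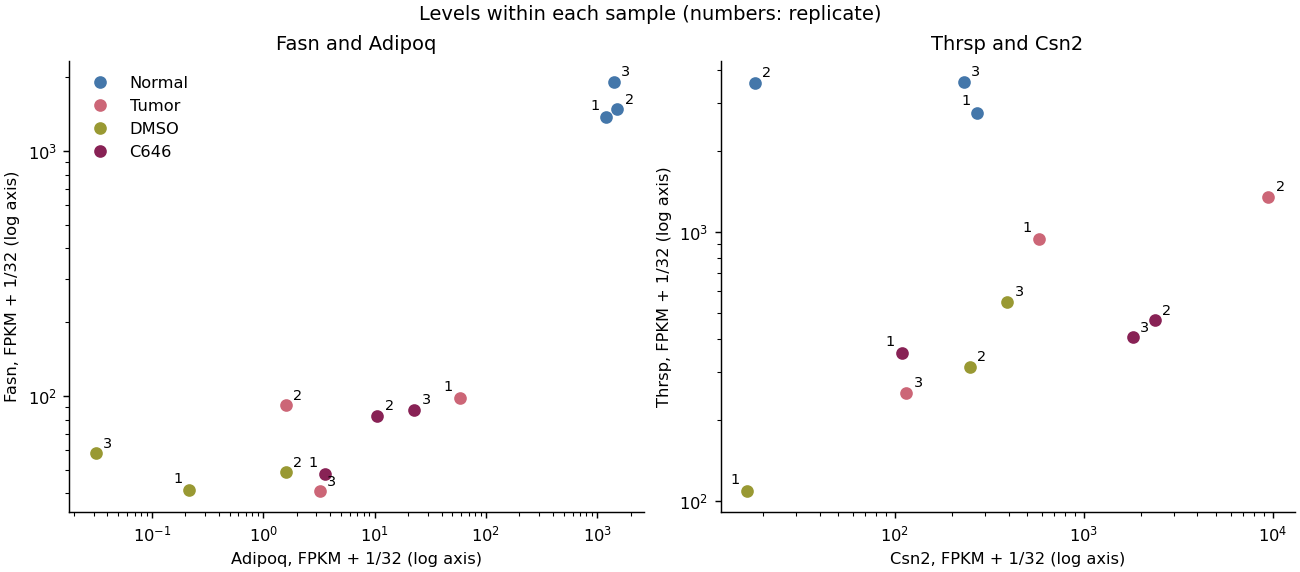
Fasn against the fat cell marker Adipoq (left) and Thrsp against the milk gene Csn2 (right) in the 12 samples, as FPKM plus 0.03125 on log axes, with the replicate number beside each point. Normal samples lie at the upper right on the left panel. The 9 tumors have Fasn between 40.7 and 98.1 FPKM and Adipoq between 0 and 58.2 FPKM. Tumor replicate 1 is the highest of them for both genes, and the relation of the genes was not tested.

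The treated and the untreated tumors can only be set side by side. Fasn averaged 76.8 ± 31.5 FPKM in Tumor, 49.4 ± 8.62 FPKM in DMSO and 72.8 ± 21.7 FPKM in C646 (SD, n = 3 each). Elovl6 averaged 8.43 ± 1.21, 8.24 ± 1.54 and 11.2 ± 2.65 FPKM in the same order. For both genes the spreads of these 3 groups overlap, and all lie below Normal, at 1594 ± 290.04 FPKM for Fasn and 129 ± 41.6 FPKM for Elovl6. Srebf1 averaged 115 ± 5.62 FPKM in Normal, 316 ± 142 FPKM in Tumor, 438 ± 158 FPKM in DMSO and 551 ± 113 FPKM in C646. Neighbouring groups of tumors in that order overlap for Srebf1. For Me1 and Scd2 every DMSO sample lay above every Tumor sample, a difference that cannot be told apart from that between the experiments. Mean Thrsp was 847 ± 556 FPKM in Tumor against 324 ± 221 FPKM in DMSO and 409 ± 57.8 FPKM in C646, also overlapping.

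The genes whose profile over the 12 samples was most like that of Fasn were sought among 11484 genes tested in both comparisons, by the root mean square difference of centred log2 values. Scd1 ranked first, at 0.211, and Acaca ranked 5, at 0.358. Mlxipl ranked 16, Elovl6 39, Thrsp 247, Acly 370 and Me1 394, while Scd2 ranked 7025 and Srebf1 10411. The nearest genes outside the pathway genes were Glul, glutamine synthetase, in a row it shares with Mir8114 (0.233), Mmd (0.242), Acsl1 (0.306), Igf1 (0.362) and the complement gene C3 (0.364). Glul averaged 572 FPKM in Normal, 25.6 FPKM in Tumor, 18.1 FPKM in DMSO and 24.0 FPKM in C646. The likeness rests mostly on the difference of the 3 Normal samples from the 9 tumors.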

How the data were processed

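RNA-seq of 12 samples was used, in 4 groups taken from the sample labels. The authors mapped the reads to mm10 with TopHat2 2.1.1 and computed FPKM per gene with Cufflinks 2.2.1, per the labels, and deposited 1 table per sample. FPKM values are not counts. The number of mapped reads is not in the tables used here, so counting error is unknown, and the libraries are non-directional, so antisense reads are not separated. Unnamed rows were left out, and repeated names were added up. Where a gene had no row under its own name alone, the joined row was used.

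Groups were compared with limma 3.58.1 in R 4.3.3 (lmFit, eBayes with a variance trend) on log2(FPKM + 0.03125), without a replicate block. Genes entered where 3 or more of the 6 samples reached 1 FPKM, p-values were adjusted by Benjamini-Hochberg, and the limit for a call was 0.05. For genes of low FPKM the pseudocount affects the fold change. P-values set the difference between groups against the spread between the samples, each of which is another mouse or pool. Normal samples are pools of 3 mice and Tumor samples single mice, so their spreads differ in kind. The fit takes a common variance per gene for both groups. The script was tested on simulated data. Positions came from GENCODE vM21 and promoters from RefSeq. The genes and lists were chosen with earlier results of these data known. Named genes are the 10 genes, the 3 with the largest absolute change of each pathway list, the first 2 of each cell type list and the 5 nearest to Fasn. Figures used Python 3.11.15 with matplotlib 3.10.9.

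Alternatives were other pseudocounts, no filter or a filter on the mean, median ratio scaling, quantile normalization, no variance trend, a fit of all 12 samples, a replicate block, the highest row of a repeated name, each replicate left out and, chosen after seeing the data, scaling of samples to the same total FPKM.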

Additional observations from a re-analysis of the deposited data

How the results depend on the processing

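Between Tumor and Normal the 8 lower genes and Srebf1 kept their calls under all 17 alternatives. The sign of Scd2, which was not called, turned to -0.0055 under quantile normalization and -0.0835 with samples scaled to the same total FPKM. That scaling moved the median log2 fold change of all genes from -0.02 to -0.29 and gave 2804 higher and 5149 lower genes against 3758 and 4128, and quantile normalization moved it to 0.12, with 4348 higher and 3640 lower. Leaving out 1 replicate gave between 2570 and 4172 lower genes, with 2570 without Normal replicate 3 and 2686 without Normal replicate 2, where fewer samples and genes enter the fit. Between C646 and DMSO none of the 10 genes was called under any alternative. Over all genes, leaving out 1 replicate gave between 0 and 12 lower genes, 12 of them without DMSO replicate 2, and the cause was not tested. Without DMSO replicate 1 the log2 fold change of Acly turned to -0.0201, of Thrsp to -0.0351 and of Me1 to 0.0561, and over all replicates left out in turn their highest values were 0.38, 1.14 and 0.0561 and their lowest -0.0201, -0.0351 and -0.49. With the replicate block 3439 genes were higher and 3827 lower in Tumor, the calls of the 10 genes did not change, and none was called for C646. Samples with the same number did not deviate together (correlations of -0.04, -0.10 and 0.01 for Normal and Tumor, and 0.17, 0.07 and 0.11 for DMSO and C646), so the numbers were not taken as pairs. With 3 samples per group and no read counts, small differences and counting error at low FPKM cannot be judged.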
